A study of Homo sapiens with 2 samples.

Results

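EEF1A1, EEF1B2, EEF1D, EEF1G, EEF2, TPT1 and PABPC1 encode elongation factors and other proteins whose mRNAs are classed as having a 5′ terminal oligopyrimidine (TOP) start. They were taken by symbol, and 7 of 7 were found among 16424 listed genes. Cap analysis of gene expression (CAGE) reads short tags at the capped 5′ ends of RNAs. It was applied to PLC/PRF/5 cells, an established human hepatoma line, in 1 library of non-treated cells (0 µg/ml) and 1 library of cells given 3 µg/ml of M2BPGi, a glycan isomer of Mac-2-binding protein, for 6 h. The comparison addresses which transcripts differ after exposure to M2BPGi, a question the study raised in relation to mTOR signaling. With 1 library per condition, no difference has a replicate check and none was tested.

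TOP mRNAs begin with a cytosine at the cap followed by a run of pyrimidines. The kinase complex mTORC1 controls how well they are translated, in part through the binding protein LARP1, so that cells can adjust the making of the translation machinery to nutrients and growth signals. CAGE counts capped RNA and does not measure translation. Because each capped RNA gives 1 tag whatever its length, levels of different genes can be set side by side without a length correction.

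The cell label was checked against marker genes. In non-treated and M2BPGi-treated cells, KRT18 had 1250 and 1592 CPM (tags scaled to library size), AFP had 695 and 566 CPM, and SERPINA1 had 671 and 455 CPM. The mature hepatocyte genes ALB and APOA1 were low, with 8.82 and 7.04 CPM for ALB and 4.37 and 4.63 CPM for APOA1. Of the leukocyte markers, PTPRC was at 0 in both libraries and CD68 had 21.2 and 20.5 CPM. Of the stromal markers, COL1A1 had 0.67 and 0.76 CPM. At 0 tags the level could still be as high as 0.125 CPM without and 0.121 CPM with M2BPGi. Of the 10 hepatocyte and hepatoma genes listed, 7 were lower and 3 higher with M2BPGi, and their median log2 ratio was -0.27. At 1.2-fold, 5 of the 10 were lower, against 24.2% of all genes with a mean of at least 1 CPM. At the same fold 1 was higher, against 13.0%. The summed level of these 10 genes was 3588 and 3547 CPM, of which KRT18 was the largest part. Their part in the results given here was not tested. In these bulk libraries, fewer cells of a type and less RNA per cell cannot be told apart.

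The annotated starts are shown first, since the TOP start is what the 7 genes were chosen for. RefSeq promoter entries (GRCh38.p14) were found for 5 of the 7 genes, and EEF1D and PABPC1 had no entry. A TOP-like start was defined as C at the annotated first base followed by at least 4 pyrimidines, read on the gene's strand. It was present for 4 of the 5 genes. Each line gives 10 bases before and 20 bases from the annotated start, which lie upstream of the gene and in its transcribed 5′ end, with the pyrimidine run from the first base in capitals. EEF1A1 is at chr6:73521013-73521042 on the minus strand, EEF1B2 at chr2:206159885-206159914 on the plus strand, EEF2 at chr19:3985444-3985473 on the minus strand, TPT1 at chr13:45341164-45341193 on the minus strand and EEF1G at chr11:62573872-62573901 on the minus strand.
EEF1A1: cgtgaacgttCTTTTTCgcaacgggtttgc
EEF1B2: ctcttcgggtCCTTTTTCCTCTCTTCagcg
EEF2: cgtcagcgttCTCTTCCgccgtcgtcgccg
TPT1: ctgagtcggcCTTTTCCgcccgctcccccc
EEF1G: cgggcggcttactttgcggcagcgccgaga
The run was 7 bases long in EEF1A1, EEF2 and TPT1 and 16 bases long in EEF1B2. EEF1B2 also has an upstream entry that begins with A. The entry of EEF1G begins with A and so holds no run at its first base. Counted the same way, with a start in at least 1 entry, 7.27% of 8833 genes that matched an entry and passed the filter on low values held one, and so did 4.07% of 35116 single entries. A match describes the annotated letters. The start used in PLC/PRF/5 cells was not analysed here, because the values are sums per gene.

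The factor that carries aminoacyl-tRNA to the ribosome, eEF1A, is encoded by EEF1A1 (ENSG00000156508), the most abundant of the 7 genes. It had 941 CPM without M2BPGi, from 22618 tags, and 1009 CPM with it, from 25076 tags. The log2 ratio of treated to non-treated cells, computed after adding 1 CPM, was 0.10. The 95% Clopper-Pearson interval of its tag ratio was 0.07 to 0.13, and this interval, like the others given here, covers counting error only. EEF1A1 was thus slightly higher in the M2BPGi-treated library, beyond counting error.

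Much of the signal with EEF1A1 sequence was listed under a pseudogene. EEF1A1P5, a processed pseudogene whose annotated transcript matched the start of EEF1A1 transcripts over 437 nt with 99.8% identity, had 1234 CPM without and 1549 CPM with M2BPGi, more than EEF1A1 itself in both. EEF1A1P6 had 20.3 and 25.7 CPM, and EEF1A1P13 had 2.70 and 2.78 CPM. The other 9 of 12 listed copies named after EEF1A1 were at 0. Together the copies held 57.2% of the sum of gene and copies in non-treated cells and 61.0% in M2BPGi-treated cells. How tags that fit several places were assigned is not given in the sources used here, so the level of EEF1A1 alone is uncertain. The sum was 2198 and 2587 CPM, with a log2 ratio of 0.23 (interval 0.22 to 0.25) in place of 0.10.

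**Figure D1:**
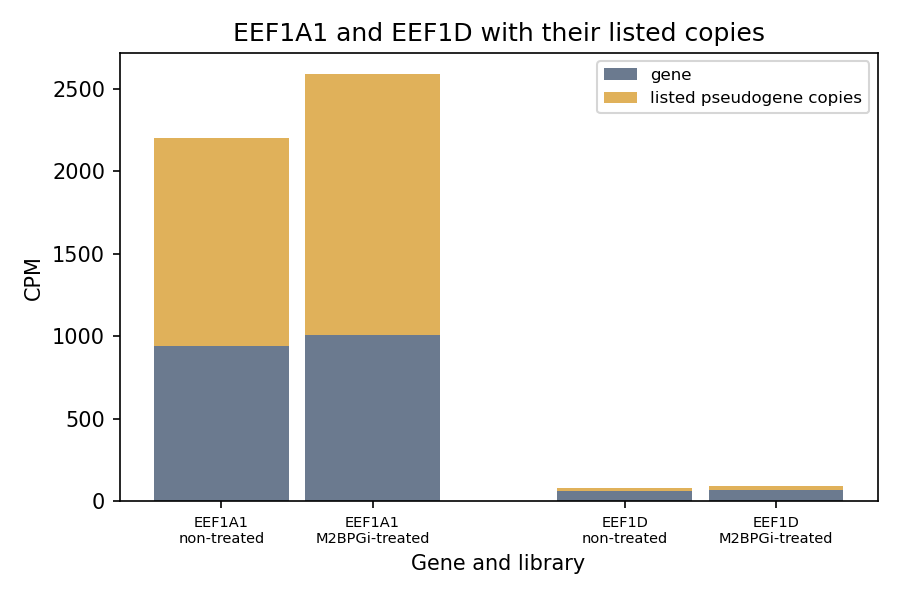
Level in CPM of EEF1A1 and EEF1D (grey) with their listed pseudogene copies stacked on top (yellow) in each library. The copies of EEF1A1 hold 57.2% and 61.0% of its bars and those of EEF1D 22.7% and 28.4%.

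The exchange factor that reloads eEF1A with GTP has the catalytic subunits EEF1B2 and EEF1D and the subunit EEF1G. EEF1B2 (ENSG00000114942) had 258 CPM without and 260.4 CPM with M2BPGi, with a log2 ratio of 0.01 (interval -0.04 to 0.06). EEF1D (ENSG00000104529) had 61.65 and 64.76 CPM, with a log2 ratio of 0.07 (interval -0.03 to 0.17). Both intervals held 0 at the deposited scaling but not with the libraries rescaled by trimmed mean of M values (TMM), which gave 0.01 to 0.11 for EEF1B2 and 0.02 to 0.22 for EEF1D. Whether these catalytic subunits differed at all thus turns on the scaling. EEF1G (ENSG00000254772) had 78.37 CPM without and 63.55 CPM with M2BPGi, from 1884 and 1580 tags. Its log2 ratio was -0.30 (interval -0.40 to -0.21), which made EEF1G the 1 gene of the 7 with the lower value in treated cells.

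The subunits were unequal in level. EEF1B2 had 3.29 times the level of EEF1G in non-treated and 4.10 times in M2BPGi-treated cells, and 4.19 and 4.02 times the level of EEF1D. EEF1G was above EEF1D in non-treated cells by a factor of 1.27, with intervals that did not overlap. In M2BPGi-treated cells the intervals of EEF1D and EEF1G overlapped, so their order there cannot be told. These levels depend on the assignment of tags as well, since the copy EEF1DP1 had 18.1 and 25.7 CPM. With this copy, EEF1D had 79.7 and 90.4 CPM and a log2 ratio of 0.18 (interval 0.09 to 0.27). EEF1G then had 0.983 times the level of EEF1D in non-treated and 0.703 times in M2BPGi-treated cells, so the order of the 2 subunits without M2BPGi depends on the copy. EEF1B2P3, a copy of EEF1B2, had 3.66 and 2.69 CPM.

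Translocation of the ribosome along the mRNA is driven by eEF2, the product of EEF2 (ENSG00000167658). EEF2 had 275 CPM without and 282 CPM with M2BPGi, with a log2 ratio of 0.03 (interval -0.02 to 0.08). With TMM scaling the interval was 0.03 to 0.13, so that here too the scaling decides whether it holds 0. The search of annotated transcripts found 0 pseudogene copies of EEF2. EEF1A1 alone had 3.42 times the level of EEF2 in non-treated and 3.58 times in M2BPGi-treated cells. With the copies of EEF1A1 these ratios were 7.98 and 9.19, so the distance between both factors depends on how the copies are counted.

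TPT1 and PABPC1 are not elongation factors. TPT1 (ENSG00000133112), which encodes the translationally controlled tumour protein, had 692 CPM without and 826 CPM with M2BPGi, with a log2 ratio of 0.26 (interval 0.23 to 0.29). PABPC1 (ENSG00000070756), which encodes the main cytoplasmic poly(A)-binding protein, had 126 and 158 CPM, with a log2 ratio of 0.33 (interval 0.26 to 0.40). These were the highest ratios among the 7 genes, and both intervals lay above 0. PABPC1P3 was near the detection limit, with 0.46 and 0.52 CPM, and the copies of TPT1 found by sequence, which the deposited values list under other symbols, left its log2 ratio at 0.25.

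**Figure D2:**
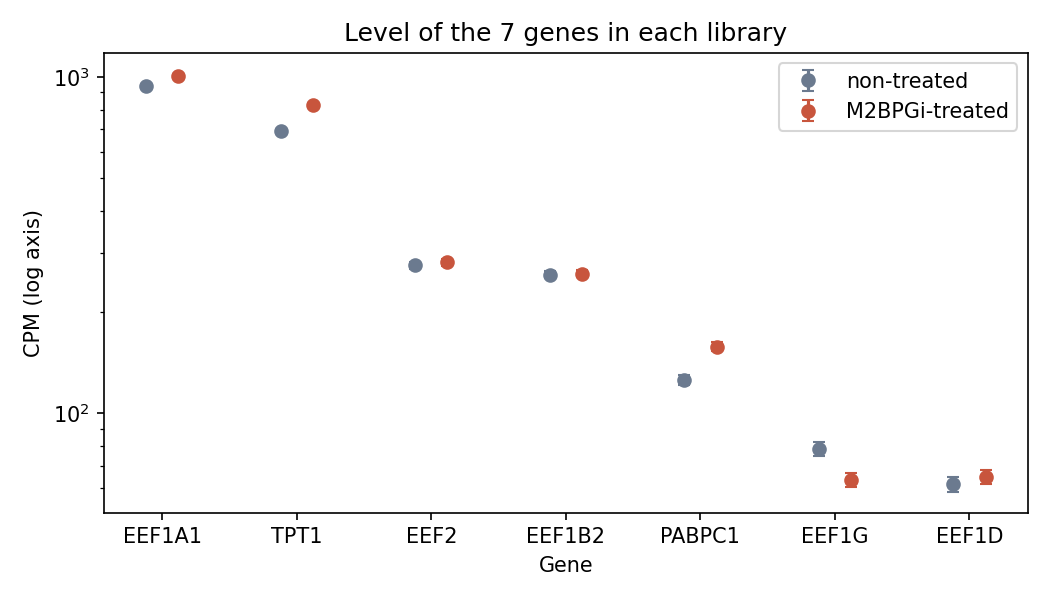
Level in CPM (log axis) of each of the 7 genes in non-treated (grey) and M2BPGi-treated (red) cells, with 95% Poisson intervals of the tags. EEF1A1 and TPT1 are the most abundant in both libraries, and EEF1G is the gene with the lower value in treated cells.

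In order of level, EEF1A1 was followed by TPT1, EEF2, EEF1B2 and PABPC1 in both libraries. Apart from EEF1D and EEF1G in M2BPGi-treated cells, the Poisson intervals of neighbours in this order did not overlap. EEF1A1 had rank 107 of the listed genes in non-treated and rank 117 in M2BPGi-treated cells, while EEF1G went from rank 2428 to 2902 and PABPC1 from rank 1518 to 1200. Together the 7 genes held 0.243% of all tags in non-treated cells (exact binomial interval 0.241 to 0.245) and 0.266% in M2BPGi-treated cells (0.264 to 0.268). The log2 ratio of the sums was 0.13, and EEF1A1 and TPT1 weigh most in it. With the listed copies the shares were 0.371% and 0.427% and the log2 ratio 0.20.

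Across the 7 genes the median log2 ratio was 0.07. It was 0.12 with TMM scaling and 0.18 with copies summed, so its size depends on both choices. At the deposited scaling 6 were higher and 1 was lower in M2BPGi-treated cells. The 13724 genes whose mean reached 1 CPM, a filter that 7 of the 7 passed, had a median of -0.05, and 42.9% of them were higher. In the group of 7, 0 were 1.5-fold higher or more, against 1.60% of all genes, and 0 were at least 1.5-fold lower, against 4.04%. At 1.2-fold, 1 was higher (PABPC1), against 13.0% of all genes, and 1 was lower (EEF1G), against 24.2%. With such small numbers these counts are near the background. They also depend on scaling. With TMM scaling, TPT1 passed 1.2-fold as well and EEF1G no longer did, which gave 2 higher, against 17.1% of all genes, and 0 lower, against 19.7%. Under that scaling 39.8% of the genes past 1.5-fold in either direction were higher, against 28.3% without it.

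Genes of a similar level are a closer comparison, because the ratio increased with level over all genes. Ribosomal protein genes, most of them higher, were kept in this trend and among the genes of similar level. Their part in both was not tested. The median log2 ratio was -0.11 for genes with a mean of 1 to 10 CPM, 0.07 for those of 100 to 250 CPM and 0.19 for the 272 genes of at least 500 CPM. Among genes within 2-fold of its own level, EEF1A1 was at percentile 37.7, EEF1B2 at 38.7 and EEF2 at 40.7. EEF1B2 and EEF2 were thus below the middle of genes as abundant as they are, although above the middle of all genes. For EEF1A1 the direction depends on its copies, since the sum of gene and copies was at percentile 59.2 among the 71 genes within 2-fold of the summed level. TPT1 was at percentile 63.3, EEF1D at 62.8, PABPC1 at 89.4 and EEF1G at 15.3. The ratios of the 7 genes lay on both sides of the middle for their level. Protein-coding genes next to them in level also varied. HIST1H3D and PDIA6, which flank EEF1A1, had log2 ratios of 0.51 and -0.27, while OST4 and TMED2, which flank TPT1, had 0.31 and -0.0019. Both neighbours of EEF1B2, EEF1D, EEF1G and EEF2 had higher ratios than the gene they flank, with 0.18 and 0.34 beside EEF1D. Both neighbours of PABPC1 had lower ratios than PABPC1.

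**Figure D3:**
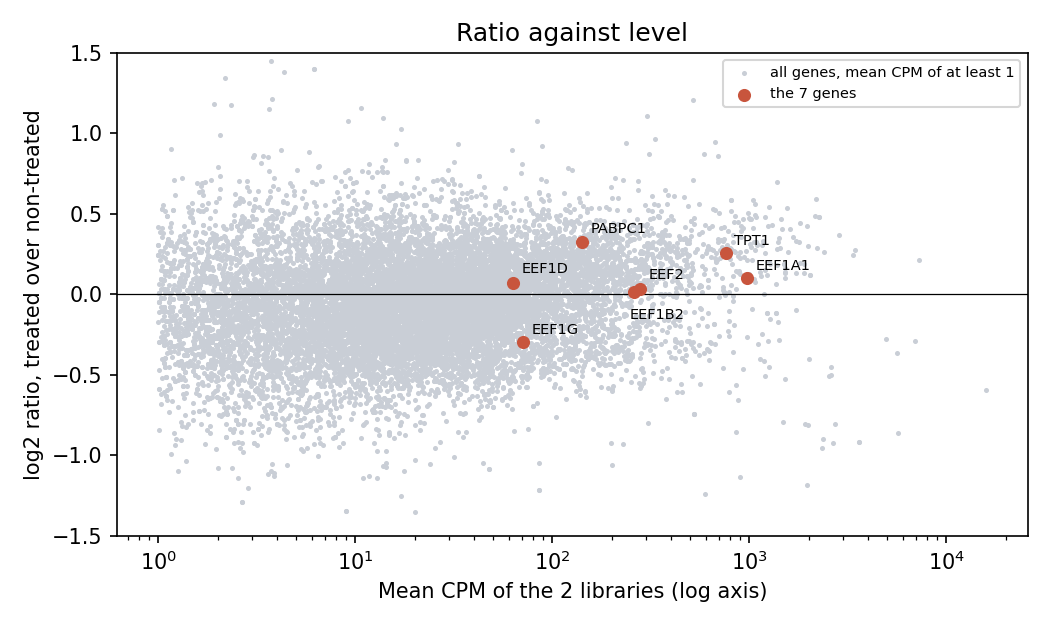
Log2 ratio (treated over non-treated) against the mean CPM of both libraries (log axis), for all genes whose mean reached 1 CPM (grey) and the 7 genes (red). The 7 genes lie inside the cloud of genes of their level, and 37 genes lie outside the plotted range of the ratio.

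The 79 ribosomal protein genes, the largest class of TOP mRNAs, had a median log2 ratio of 0.30, with 75 higher and 4 lower. RPS6, with 2.93, RPS14, with 0.54, and RPS15A, with 0.52, were the highest, and RPL24, with -0.20, was the lowest. EEF1A1 was below 68 of these 79 genes, EEF1D below 70, EEF2 below 73, EEF1B2 below 74 and EEF1G below all 79. TPT1 was below 49 and PABPC1 below 34. EEF1A1 summed with its copies, with 0.23, was also below the median of this list. The elongation factors thus had ratios below the middle of the ribosomal protein genes, whereas PABPC1 was near it. The lists also differ in level. Ribosomal protein genes with a promoter entry had median levels of 552 CPM (48 with a TOP-like start) and 661 CPM (16 with another start). EEF1B2, EEF1D, EEF1G and EEF2 lay below both values, and the ratio increased with level over all genes. The difference between the lists was not tested.

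Another 10 genes classed as having TOP mRNAs had a median of 0.15, with 7 higher and 3 lower. EIF3E, with 0.29, RACK1, a ribosome-associated scaffold, with 0.26 and EIF3L with 0.26 were the highest. EIF4B was the lowest, with 29.3 CPM without and 10.9 CPM with M2BPGi, and VIM and HNRNPA1 had -0.02 and -0.0022. Of the 6 genes of this list with a promoter entry, 5 had a TOP-like start, among them EIF4B with a run of 5 bases. The annotated start of VIM begins with G and holds no pyrimidine run. The 27 other initiation factors had a median of 0.16, with 21 higher and 6 lower, against a median of -0.05 for all genes. The annotated starts of these initiation factors were not described as a list, and the part of level in their median was not tested.

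Other genes of elongation and of the poly(A)-binding family were described as well. The 17 listed genes of elongation and its modifiers had a median of 0.11, with 11 higher and 6 lower. EEFSEC, the elongation factor for selenocysteine, had 9.86 and 18.4 CPM, and DPH5 and DPH3, which act in making the diphthamide of eEF2, had log2 ratios of 0.76 and 0.38. The other diphthamide genes listed had lower ratios, with 0.27 for DPH1, 0.04 for DPH2 and 0.0054 for DNAJC24, and the intervals of DPH2 and DNAJC24 held 0. DOHH, which hydroxylates eIF5A, had -0.18, and its interval (-0.40 to 0.02) held 0 as well. The 7 genes of the poly(A)-binding family other than PABPC1 had a median of 0.00316. Among them PAIP1, whose product binds PABPC1, had 0.40 and PABPC1L had -0.49.

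The 15 regulators of TOP mRNAs had a median of -0.02, with 7 higher and 8 lower. CNBP, which binds TOP mRNAs, had 157 CPM without and 259 CPM with M2BPGi, with a log2 ratio of 0.72. EIF4EBP1, a translation repressor that mTORC1 phosphorylates, had 173 and 249.9 CPM, with 0.52, while LARP4 had -0.48 and EIF4G1 -0.43. The 5 genes of ribosome rescue and termination had a median of -0.01 and the 5 of mitochondrial elongation of -0.11. In the mitochondrial list, TUFM, the counterpart of EEF1A1, had 406 and 363 CPM.

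**Figure D4:**
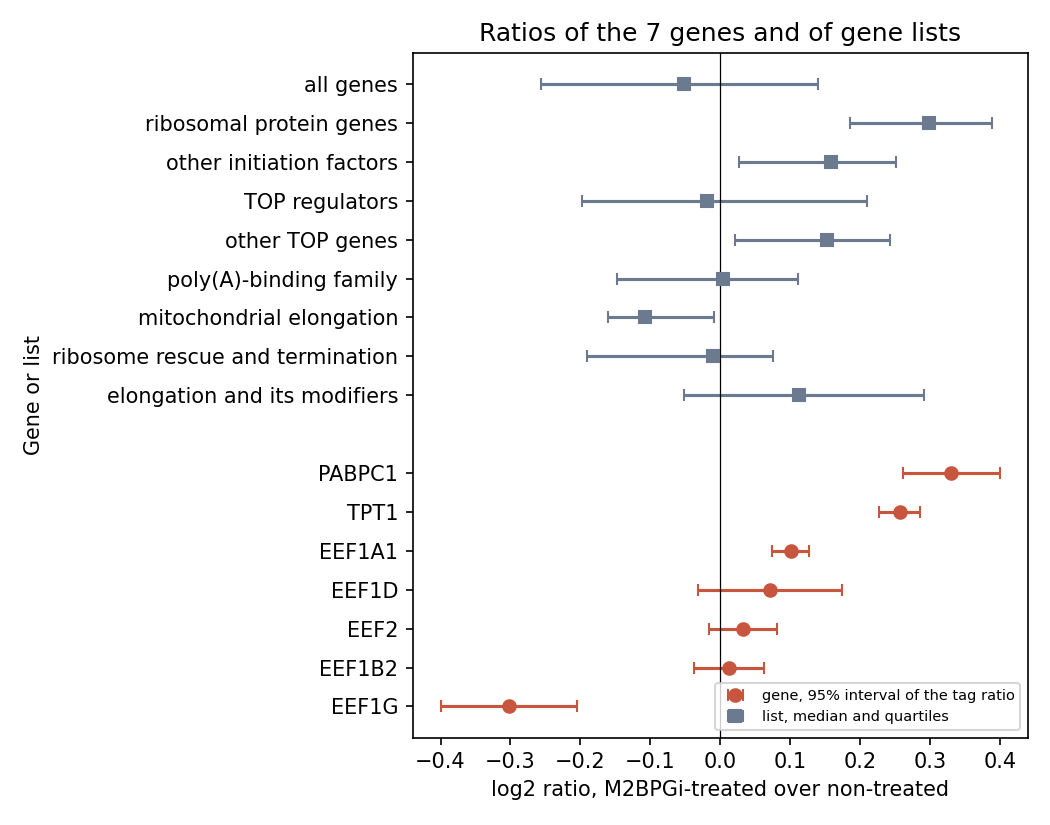
Log2 ratio (treated over non-treated) for the 7 genes (red, with 95% intervals of the tag ratio) and for gene lists and all genes (grey, median and quartiles). PABPC1 and TPT1 are highest among the 7 genes and EEF1G is lowest.

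Listed genes overlap EEF1B2, EEF1D, EEF1G, EEF2 and TPT1. SNORD37, a small nucleolar RNA inside EEF2, had 20.8 and 17.4 CPM. SNORD51 and SNORA41 inside EEF1B2 had 7.32 and 6.88 CPM, and 7.11 and 6.68 CPM. SNORA31 inside TPT1 had 1.0 and 1.29 CPM. These small nucleolar RNAs lie on the strand of the gene around them, and whether their tags come from its RNA was not analysed. TPT1-AS1, on the other strand of TPT1, had 3.83 and 3.38 CPM. TIGD5, on the other strand of EEF1D, had 5.53 and 5.71 CPM. NDUFS1, a subunit gene of respiratory complex I on the other strand of EEF1B2, had 153 and 139 CPM, which is closer to the level of the gene it overlaps. The identifier ENSG00000255508, deposited under the symbol MIR3654, had 11.7 and 8.93 CPM. In GENCODE v29 it is a protein-coding locus on the strand of EEF1G, and a transcript of it matches EEF1G over 359 nt with 100% identity. This value therefore does not measure the microRNA, and tags of EEF1G cannot be told apart from it. The processed pseudogene AC008038.1 matched EEF1G over 369 nt with 99.2% identity and is not among the listed genes, so it has no value here. A transcript of CHCHD3 also matched EEF1G, over 192 nt with 98.4% identity. CHCHD3 was higher in M2BPGi-treated cells, with 90.35 CPM without and 109.16 CPM with M2BPGi. How tags in shared stretches were assigned is not given in the sources used here.

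Whether a TOP-like start goes with the ratio was described over all genes. This description was added once the values were known. Of 8833 genes with a promoter entry and a mean that reached 1 CPM, 642 had such a start in at least 1 entry. Their median log2 ratio was 0.02, against -0.05 for the other genes. Both medians depend on the filter, and among genes with a mean of at least 50 CPM they were 0.13 and 0.03. Genes with such a start were also more abundant, with a median level of 31.4 CPM against 25.3 CPM. At 50 CPM or more these levels were 147 and 98.4 CPM, and the part of level in the difference was not tested. Without the ribosomal protein genes and the 7 genes, 590 genes with such a start had a median log2 ratio of -0.0048. The 8174 other genes had -0.05, and at 50 CPM or more these median ratios were 0.11 and 0.03. Among these same genes, the median increased with the length of the run up to 6 bases and was lower beyond. It was -0.06 with no run, -0.03 for runs of 1 to 2 bases, 0.0061 for 3 to 4 bases, 0.04 for 5 to 6 bases and -0.03 for at least 7 bases. Among the 7 genes, the 4 with a TOP-like start had a median of 0.07. EEF1G, the only 1 without such a start in its entry, had -0.30, and PABPC1, with no entry, had 0.33. Among the ribosomal protein genes, 48 with a TOP-like start had a median of 0.33 and 16 with another start 0.31.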

How the data were processed

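CAGE libraries of non-treated and M2BPGi-treated PLC/PRF/5 cells were compared, 1 per condition. Before deposit, the authors removed ribosomal tags, mapped what was left and clustered 5′ ends with CAGEr. The deposited unit is CPM for each gene, with 2 decimals. The submitters' processing notes name BWA, HISAT2 and hg19, whereas the methods name a mouse genome; the gene identifiers are human. Within rounding, 100% of values above 0 were whole multiples of 1 tag, which gave totals of 24040209 and 24862941 tags.

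Log2 ratios used a pseudocount of 1 CPM, which understates changes of low genes, and genes were kept if their mean reached 1 CPM. Intervals at 95% came from these tags. Where a symbol had several identifiers, identical values were counted once, and otherwise the protein-coding identifier of GENCODE v29 was used. Copies were sought with BLAST+ 2.17.0, using the first 500 nt of protein-coding transcripts against GENCODE v29 transcripts, with at least 95% identity over at least 100 nt. Python 3.11.15, numpy 2.4.6, pandas 2.3.3, scipy 1.17.1 and matplotlib 3.10.9 were used. The reading back of tags was tried on simulated data, but no outcome of that trial is given here. Alternatives were other pseudocounts, filters, folds and scalings, and sums with copies.

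The 7 genes and the lists were chosen with earlier results of these data known. Genes named were the 7 and, of each list, up to 3 of the highest and 3 of the lowest with a mean CPM of at least 10. Listed copies, neighbours in level and overlapping genes were named too. DPH1, DPH2 and DNAJC24 were added beside the other diphthamide genes. Cell markers were listed by name. No endothelial marker of the list (PECAM1, VWF, CDH5) was found among the listed genes. Of the leukocyte and stromal markers, CD163, MARCO, COL1A2, ACTA2 and PDGFRB were not found either.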

Additional observations from a re-analysis of the deposited data

How the results depend on the processing

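No library can be left out, since each condition has 1. No paired analysis was possible because there is a single library on either side. No binomial test across genes was run. TMM and median-of-ratios factors were computed directly from the formulas, not with the packages. With other pseudocounts and scalings 6 of the 7 genes kept a ratio above 0 and EEF1G one below 0. Of 45 values of single genes, 29 moved by less than the counting error, 16 by more, and 0 changed sign.

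The median of the 7 genes, 0.07, was 0.1244 with median-of-ratios scaling, 0.1211 with the median of all genes set to 0 and 0.1792 with copies summed, by symbol or by sequence. With TMM, median-of-ratios and median-0 scaling, in this order, EEF1A1 had 0.1514, 0.1554 and 0.1521, EEF1B2 0.06322, 0.06729 and 0.06395, EEF2 0.08331, 0.08738 and 0.08404, and TPT1 0.307, 0.3111 and 0.3077. With copies summed either way, EEF1A1 had 0.2347 and EEF1D 0.1792. At 1.2-fold, 1 gene was higher and 1 lower. Under each of the 3 scalings, 2 were higher and 0 lower, against 17.1%, 17.5% and 17.2% of all genes higher and 19.7%, 19.4% and 19.7% lower. The cause of the changes with copies was not tested; the scalings shift the 7 genes by about 0.05, and genes near 1 CPM by less. The log2 ratio of the summed share, 0.13, was 0.1269 over the tags on listed genes. It was 0.1822, 0.1863 and 0.183 under the same scalings, and 0.2023 with copies. The median of the other TOP genes moved by less than the counting error under the pseudocounts, scalings and filters run, and its single genes were not followed.

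Chosen after the data were seen were the copies by sequence, the 1.2-fold counts under scalings and copies, TMM for the share of all genes, the annotated starts, the intervals under scalings, the percentile of EEF1A1 and the level ratios with copies, and the summed share under scalings and with copies. The intervals of EEF1B2, EEF1D and EEF2 held 0 at the deposited scaling and under none of the 3 others. Genes with a TOP-like start had 0.02 and, without ribosomal protein genes and the 7 genes, -0.004764. They had 0.1344 at a mean CPM of at least 50, 0.1229 at 50 to below 1000, and 0.1074 for both without ribosomal protein genes and the 7 genes. Genes with other starts changed from -0.05 to 0.03035 at a mean CPM of at least 50, 0.03001 at 50 to below 1000, and 0.02931 and 0.02905 without ribosomal protein genes and the 7 genes. The difference between both kinds of start kept its direction under each filter run. At a mean CPM of at least 500, 4.044% of genes were 1.5-fold higher and 7.353% lower, while 2.356% were lower among genes whose mean reached 10 CPM. Depth limits only counting error, and the missing replicates limit every comparison.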
